A study of Mus musculus with 4 samples.

Results

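The genes described here encode the proteins of the cytosolic ribosome in mouse pre-B cells, a stage of B lymphocyte development in the marrow. They were chosen by symbol (Rps, Rpl, Rplp or Rpsa names, with pseudogene symbols left out) and by a level of 1 FPKM or more in at least 1 of 4 RNA-seq libraries, FPKM being a read level scaled to transcript length and library size. Of 23284 gene symbols, 84 carried such a name and 81 passed. Of these, 76 are core proteins (31 of the small subunit, 42 of the large subunit and 3 of the acidic stalk) and 5 are paralogs whose symbols end in l (Rpl22l1, Rpl36al, Rpl3l, Rpl7l1 and Rps27l). Just inside the threshold, judged by the highest of the 4 values, were Rpl3l at 4.92 FPKM, Rpl30 at 31.2 and Rpl7l1 at 34.1. Outside it were Rpl39l at 0.864 and Rpl10l and Rpl26, both listed at 0.

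The cells came from C57BL/6J mice, with 1 library for each of 4 groups. The first pair was STAP-2 transgenic (Tg) marrow and wild-type (WT) marrow, both at steady state and both with 0901 in their titles. The second pair was marrow labelled STAP-2 knockout (KO) and wild-type marrow, both taken 1 month after transplantation and both with 0826 in their titles. STAP-2 is signal-transducing adaptor protein-2, and no source used here gives the promoter of the transgene, the allele of the knockout or the number of animals behind each library. Estimated depth was 7280000 reads for the transgenic and 7340000 for the steady-state wild-type library, and 8700000 for the library labelled knockout and 7770000 for transplanted wild type. With 1 library per group no difference below has a replicate check and no p-value is given; 95% intervals on ratios are exact Clopper-Pearson intervals on estimated reads and cover counting error only.

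The labels were checked against the values. All 12 pre-B markers, among them Cd79a and Pax5, were at 1 FPKM or more in every library. Stap2 itself rested on 5 reads in the transgenic library against 2 in steady-state wild type, and on 2 reads in the library labelled knockout against 0 in transplanted wild type. It therefore checks neither label, and what is said of the transgenic library and of the labelled knockout depends on those labels being right. Neutrophil markers (10 genes) summed to 1827 FPKM in the transgenic library against 761 in steady-state wild type, and to 643 in the library labelled knockout against 1666 in transplanted wild type, with none of the 10 at 0. Monocyte and macrophage markers (6 genes) summed to 86.7 against 53.4 and to 52.6 against 127 FPKM in the same pairs. T and NK markers (4 measured) were at 3.53 against 3.42 and at 3.54 against 7.87 FPKM. Plasma cell (5 measured) and erythroid markers (6) were lower in the transgenic library, at 472 against 675 and 5.10 against 36.5 FPKM, and higher in the library labelled knockout, at 310 against 278 and 9.16 against 6.34. Genes without an annotated transcript of 300 nt or more summed to 72737 FPKM in the transgenic library against 34640 in steady-state wild type. They summed to 36784 in the library labelled knockout against 64030 in transplanted wild type. These sums hold short genes, for which a value per length is unstable, and the 473 symbols that matched no annotation, whatever their length. How much came from either was not separated. The neutrophil and monocyte sums and the sums of short or unmatched genes move with the differences of the ribosomal protein genes below. Their part in those differences was not tested. In bulk RNA fewer cells of a type and less RNA per cell cannot be told apart.

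Ribosomal proteins fold around the ribosomal RNAs to form a small subunit, which decodes the messenger RNA, and a large subunit, which joins amino acids. The acidic stalk of the large subunit recruits the elongation factors. Nearly every cell makes these proteins in matched amounts, their messenger RNAs are short and abundant, and they carry a terminal oligopyrimidine (TOP) tract, an unbroken run of C and T at the transcript start through which mTORC1 and Larp1 control their translation. Their processed pseudogenes are many, so that reads of a gene and of its copies are hard to separate. Pre-B cells grow and divide in bursts after their heavy chain has been assembled, which draws on protein synthesis.

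Promoter sequences show the TOP tract in the members that the results turn on and its absence in a paralog. The letters run from 50 bases before the RefSeq transcript start to 20 bases from it (GRCm38.p6), on the strand of the gene, and capitals mark the longest unbroken run of C and T (both runs where 2 tie) where it has 8 or more letters. Rpl38 and Rpl28 are among the 6 most abundant core genes counted without copies, Rpl35 has a long run, Rps6 is the substrate of S6 kinase, and Rps27 shows the widest spread between libraries. Rps27l and Rpl3l are paralogs.
Rpl38 (chr11:114668530-114668599, plus strand): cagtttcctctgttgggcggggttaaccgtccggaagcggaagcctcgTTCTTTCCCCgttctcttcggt
Rpl28 (chr7:4792915-4792984, plus strand): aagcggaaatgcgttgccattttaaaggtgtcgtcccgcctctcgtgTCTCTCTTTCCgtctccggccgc
Rpl35 (chr2:39005112-39005181, minus strand): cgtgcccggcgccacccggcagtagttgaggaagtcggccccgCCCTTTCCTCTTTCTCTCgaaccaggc
Rps6 (chr4:86857348-86857417, minus strand): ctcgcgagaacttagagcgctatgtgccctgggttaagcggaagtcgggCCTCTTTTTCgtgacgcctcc
Rps27 (chr3:90213629-90213698, minus strand): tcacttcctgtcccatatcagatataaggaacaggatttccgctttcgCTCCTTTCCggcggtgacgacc
Rps27l (chr9:66946036-66946105, plus strand): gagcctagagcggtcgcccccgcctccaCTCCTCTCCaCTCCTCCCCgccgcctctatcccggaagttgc
Rpl3l (chr17:24727776-24727845, plus strand): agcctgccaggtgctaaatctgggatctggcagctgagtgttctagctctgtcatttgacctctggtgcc
In the 5 core genes printed the run spans the start itself, beginning 2 bases before it in Rpl38 and 7 bases before it in Rpl35. Rps27l has 2 runs of 9 letters, which begin 22 and 12 bases before the start and end ahead of it, and Rpl3l has none longer than 5 bases.

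A RefSeq promoter was matched for 55 of the 76 core genes. A run of 8 or more C or T lay within 50 bases of the start on the gene strand in 47 of them, 85.5%, against 36.2% of 7846 other genes at 1 FPKM or more. On the other strand the shares were 25.5% and 39.0%. Over 300 bases and both strands, the motif CTCTTTC stood in 29.1% of core promoters against 8.21% of the others, and CCGGAAG, the core of ETS factor sites, in 22 of 55 against 21.7%. The E-box CACGTG, bound by Myc with Max, stood in 10.9% against 12.2%. CTCTTTC is itself a run of C and T, so its matches overlap the first measure. These matches describe letters and name no bound factor.

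The copies matter most for Rps27, Rpl30 and Rpl26, and the coding letters show how alike gene and copy are. The first 90 coding bases of Rps27 (chr3:90212522-90213651, minus strand, GRCm38), of its intronless copy Gm9846 (chr9:114982366-114982739, minus strand, named Rps27rt in GENCODE M21) and of the paralog Rps27l (chr9:66946086-66949516, plus strand) are given next, with capitals at the 24 bases in which Rps27l differs from Rps27.
Rps27: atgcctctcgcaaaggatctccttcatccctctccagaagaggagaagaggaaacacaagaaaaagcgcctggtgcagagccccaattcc
Gm9846: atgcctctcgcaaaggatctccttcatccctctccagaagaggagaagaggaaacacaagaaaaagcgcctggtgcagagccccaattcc
Rps27l: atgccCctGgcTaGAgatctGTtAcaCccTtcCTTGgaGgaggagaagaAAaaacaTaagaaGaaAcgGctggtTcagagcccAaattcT
Rps27 and Gm9846 had 0 differences over the whole coding sequence. Rpl30 and its processed pseudogene Gm12191 differ at 1 coding base, G96A, and Rpl26 and its processed pseudogene Gm15772 at 2, C177T and T288C, counted from the first base of the start codon with the base of the gene first. The stretches around G96A and C177T follow, with the differing base in capitals.
Rpl30 at 96: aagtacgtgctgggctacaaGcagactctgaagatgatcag
Gm12191 at 96: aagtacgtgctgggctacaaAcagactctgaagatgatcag
Rpl26 at 177: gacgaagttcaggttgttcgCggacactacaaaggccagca
Gm15772 at 177: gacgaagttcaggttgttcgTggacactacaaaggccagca

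The core genes were among the most abundant in every library. Between them they held 15.98% of all FPKM in the transgenic library and 15.82% in steady-state wild type, and 16.02% both in the library labelled knockout and in transplanted wild type. In each library 71 of the 76 ranked among the 200 highest genes. The median core gene stood at 1197 FPKM in the transgenic library against 1121 in steady-state wild type, and at 1101 in the library labelled knockout against 1164 in transplanted wild type, where the median of all genes at 1 FPKM or more lay between 16.4 and 16.9. The order of the 76 levels was nearly the same in all libraries, with Spearman correlations from 0.986 to 0.993 across genes, which share each library's depth.

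Counted without copies, Rps29 was the most abundant, at 2545 FPKM in the transgenic library, 2341 in steady-state wild type, 2342 in the library labelled knockout and 2427 in transplanted wild type. Rps9 (2221, 2159, 2075 and 2265 FPKM in the same libraries) and Rpl28 (2236, 2147, 2096 and 2010 FPKM) came next, then Rpl23a, Rps20 and Rpl38. These values overlap between genes, so their order is not fixed. At the low end, Rpl30, Rps27 and Rps15a lay under 150 FPKM in every library, and Rpl22, Rpl15 and Rpl31 followed. With its identical copy added, Rps27 stood above Rps29 instead, at 5439, 5121, 4587 and 4943 FPKM in the same order of libraries. Rps15a was at 92.2 and 84.1 FPKM in the transgenic and steady-state wild-type libraries and at 84.5 and 87.9 in the library labelled knockout and transplanted wild type. Rpl15 stood at 254, 245, 253 and 270 FPKM and Rpl31 at 413, 370, 382 and 409 FPKM in the same order of libraries. Core genes thus stood far apart, from 21.4 to 2545 FPKM in the transgenic library, and the lowest include those whose copies hold most of the level. The low end was Rpl30, which with its copy added stood at 1477 FPKM in that library.

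**Figure D1:**
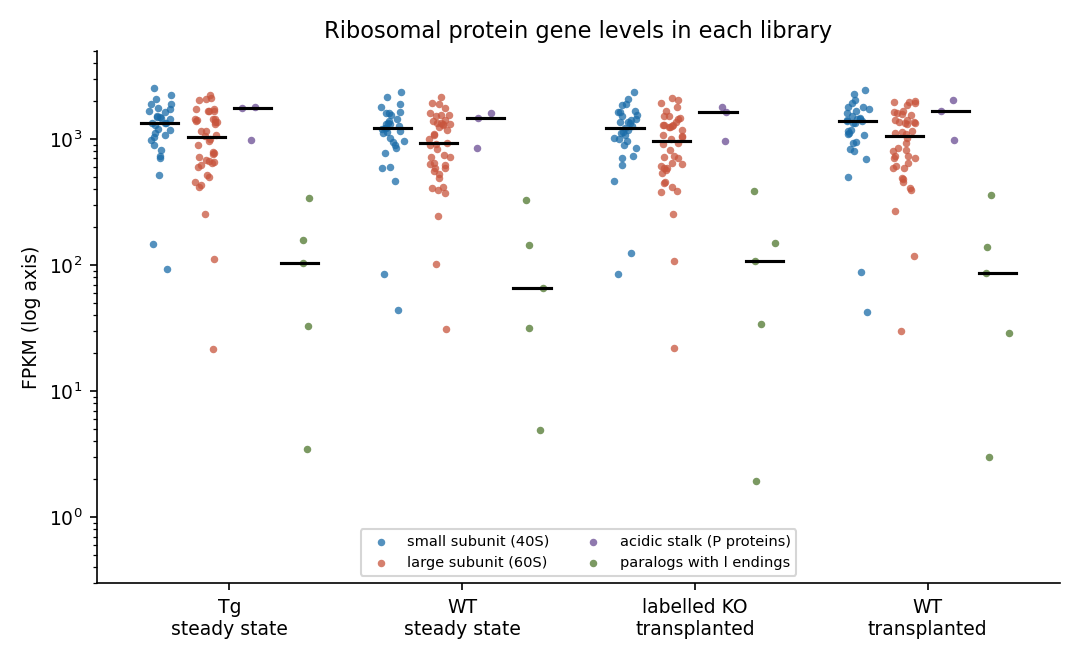
FPKM on a log axis of the 81 ribosomal protein genes in each library, by class, with 1 point per gene and a black bar at the class median. Medians of the small and large subunit lie between 920 and 1383 FPKM in all 4 libraries, with Rpl30 at the bottom between 21.4 and 31.2, and the median of the l-ending paralogs lies below those of the other classes, with points that overlap.

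Small-subunit genes had a median of 1342 FPKM in the transgenic library against 1213 in steady-state wild type, then 1209 in the library labelled knockout against 1383 in transplanted wild type. Large-subunit genes had medians of 1031 against 920 and of 969 against 1057 in the same pairs. The summed small-subunit level was 0.903 of the large-subunit sum in the transgenic library and 0.894 in steady-state wild type. It was 0.911 in the library labelled knockout and 0.915 in transplanted wild type, so that the balance of the subunits differed little between libraries.

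For 3 genes most of the summed level lay at a copy. Rps27, a zinc-finger protein of the small subunit, was at 148 FPKM in the transgenic library against 44.0 in steady-state wild type, and at 124 in the library labelled knockout against 42.4 in transplanted wild type. Its identical copy Gm9846 was at 5291 against 5077 and at 4463 against 4900 FPKM in the same pairs. Gene and copy together were 1.06 times as high in the transgenic library as in steady-state wild type, and 0.928 times as high in the library labelled knockout as in transplanted wild type. The 3.36-fold (2.36 to 4.77) and 2.94-fold (2.10 to 4.25) ratios of Rps27 alone, the only core gene past 2-fold in either genotype comparison, were thus not present in the sum.

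Rpl30, which binds its own transcript to limit its output in yeast, was at 21.4 FPKM in the transgenic library against 31.2 in steady-state wild type, and at 22.1 in the library labelled knockout against 30.0 in transplanted wild type. Gm12191 was at 1455 against 1309 and at 1286 against 1396 FPKM. With the copy added the ratio was 1.10 for transgenic over wild type and 0.917 for labelled knockout over wild type. Rpl26, which binds p53 mRNA in human cells, was listed at 0 throughout, and Gm15772 carried 1670 FPKM in the transgenic library against 1545 in steady-state wild type, then 1460 in the library labelled knockout against 1596 in transplanted wild type. Both sums thus had the direction of most core genes in both genotype comparisons. A gene-level table does not show whether these reads came from the gene or from the copy.

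**Figure D2:**
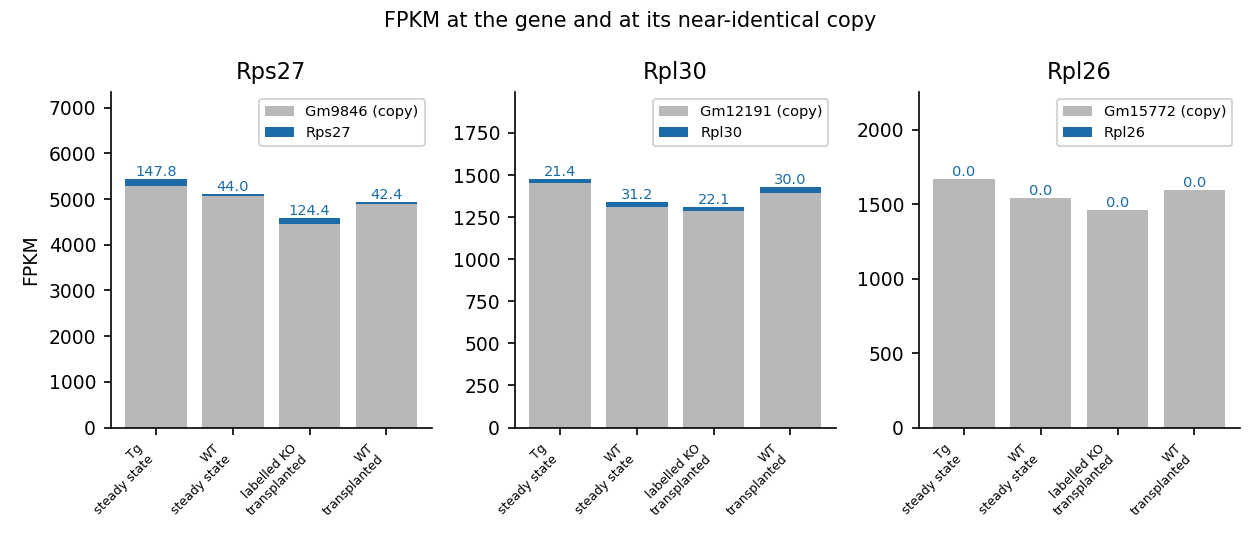
FPKM of Rps27, Rpl30 and Rpl26 (blue, with their values printed) stacked on the near-identical copies Gm9846, Gm12191 and Gm15772 (grey) in each library. The copies hold nearly all of the level, from 1286 to 5291 FPKM, while the genes themselves are at or under 148 FPKM.

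In GENCODE M21, 76 of the 84 symbols had at least 1 annotated sequence elsewhere with 95% identity or more over 90% or more of the coding length, and 15 had one among the symbols of the files. Only in Rpl26, Rpl30 and Rps27 did the copy take more than 20% of the sum in any library. Rpl34 came next. Rpl34-ps1 was at 4.50 FPKM in the transgenic library against 112 in steady-state wild type, and at 244 in the library labelled knockout against 67.5 in transplanted wild type, beside 1741 against 1560 and 1356 against 1591 FPKM at Rpl34.

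Transgenic and wild-type cells at steady state were compared by the STAP-2 transgene that the label gives, and no excess of Stap2 is shown by its few reads. Core ribosomal protein genes were slightly higher in the transgenic library: 75 of 76 lay above wild type, where 46.7% of 10843 genes at 1 FPKM or more did so. Their median difference was 0.13 on the log2(FPKM + 1) scale, with quartiles at 0.08 and 0.19, and the median of all genes was -0.02. Among other genes at 100 FPKM or more, 47.7% were higher. Rescaling both libraries to the same FPKM sum moved the median of all genes to -0.13 and that of the core to 0.01, with 42 of 76 core genes then higher, against 28.4% of all genes; relative to all genes the core difference was 0.15 as deposited and 0.14 on that scale. Subtracting the median difference of genes of like transcript length lowered the core median to 0.079.

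The counting interval of the ratio lay above 1 for 59 of the 76 core genes, below it for 1 and across it for 16. It lay above 1 for 14.5% of all genes with an estimate. At 1.2-fold, 3 core genes were higher (Rps27, Rpl14 and Rps2) and 1 lower (Rpl30), against 14.6% and 12.3% of all genes, so the core genes differed together and by little each. At 2-fold the count was 1, Rps27, against 1.9% of all genes either way. Small-subunit genes had a median of 0.13, large-subunit genes 0.12 and the 3 stalk genes 0.22, and rescaled to the same FPKM sum 0.01, -0.004 and 0.10.

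Rpl14, a large-subunit protein, was at 519 FPKM in the transgenic library against 418 in wild type, a ratio of 1.24 (1.18 to 1.31). Rps2, which lies near the mRNA entry channel of the small subunit, was at 734 against 599 FPKM (ratio 1.23, 1.17 to 1.28). The stalk protein gene Rplp2 was at 1766 against 1473 FPKM (log2 difference 0.26, ratio interval 1.13 to 1.27). Rpsa, also known as the laminin receptor precursor, was at 701 against 587 FPKM (ratio 1.19, 1.15 to 1.24). Apart from Rps27 these were the genes furthest above wild type. At the other end were Rps3a (1890 against 1883 FPKM), Rpl5 (497 against 492), Rpl27a (657 against 644) and Rpl12 (1652 against 1612), whose intervals all included 1, and Rpl30.

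After transplantation the comparison of marrow labelled knockout with wild type bears on the loss of STAP-2 in transplanted marrow, if that label is right. Here the core genes were slightly lower: 71 of 76 lay below wild type, where 56.0% of 10790 genes did so, and 48.5% of other genes at 100 FPKM or more. Their median difference was -0.11, with quartiles at -0.15 and -0.06, against -0.03 for all genes. With both libraries rescaled to the same FPKM sum, the median of all genes was 0.06 and that of the core -0.01, with 34 of 76 core genes higher, against 60.9% of all genes; relative to all genes the core difference was -0.08 as deposited and -0.07 on that scale. Counting intervals lay below 1 for 50 core genes, above it for 2 and across it for 24, and below 1 for 22.1% of all genes.

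At 1.2-fold, 2 core genes were lower (Rpl30 and Rpl12) and 1 higher (Rps27), against 16.7% and 12.7% of all genes. At 2-fold there was 1, Rps27, against 1.84% of all genes either way. Rpl12, at the base of the stalk, was at 1524 FPKM in the library labelled knockout against 1868 in wild type, a ratio of 0.816 (0.797 to 0.835). Rpl10a was at 614 against 730 FPKM (ratio 0.841, 0.798 to 0.886), and Rps13, a small-subunit protein, at 1124 against 1327 (ratio 0.847, 0.809 to 0.886). Rps19, the gene most often mutated in Diamond-Blackfan anaemia in people, was at 1178 against 1383 FPKM (ratio 0.851, 0.816 to 0.888). These 4 and Rpl30 were the lowest. Core genes above wild type included Rps27, Rpl28 (2096 against 2010 FPKM, ratio 1.04, 1.01 to 1.07), Rpl23a (2038 against 1978) and Rps28 (1629 against 1609), and the intervals of Rpl23a and Rps28 included 1.

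Both genotype comparisons, which share no library, had opposite directions in nearly all core genes. Of 76, 70 were higher in the transgenic library than in steady-state wild type and lower in the library labelled knockout than in transplanted wild type, a pattern shown by 23.0% of 11053 genes and by 19.7% of other genes at 100 FPKM or more. With libraries rescaled to the same FPKM sum, 21 of the 76 core genes showed it, against 10.6% of all genes. Under the other 3 scalings it held for 63 to 67 of the 76, against 22.2% to 24.5% of all genes. All 3 stalk genes showed it as deposited. Rplp0, the scaffold of the stalk, was at 988 FPKM in the transgenic library against 850 in steady-state wild type, and at 967 in the library labelled knockout against 983 in transplanted wild type (ratio 0.984, 0.956 to 1.01). Rplp1, which dimerises with Rplp2 on that scaffold, was at 1783 against 1594 and at 1791 against 2043 FPKM. Neutrophil markers had the same pair of directions as the core genes, as given above.

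**Figure D3:**
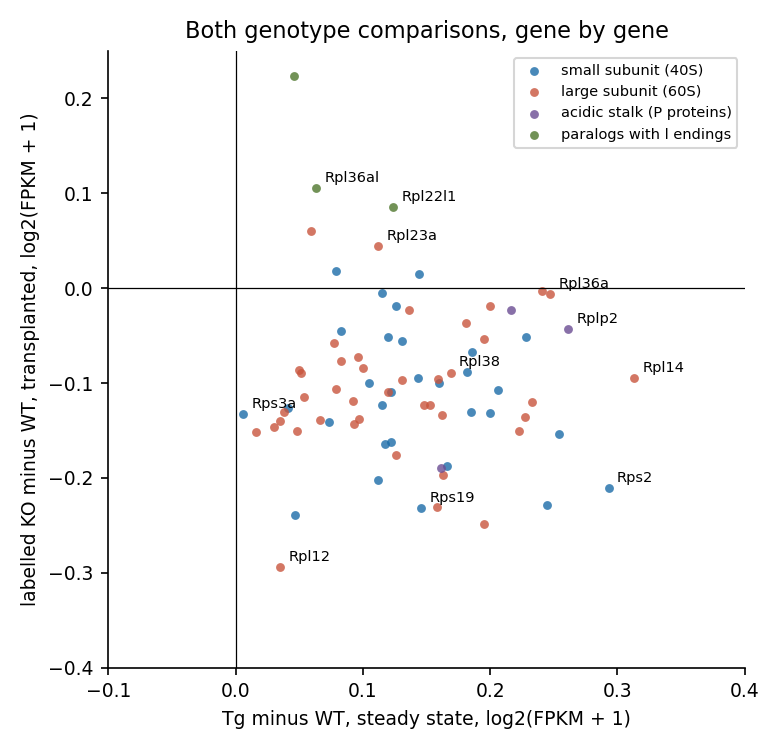
Each point is 1 ribosomal protein gene, with its transgenic minus wild-type difference at steady state on the horizontal axis and its labelled-knockout minus wild-type difference after transplantation on the vertical axis, both in log2(FPKM + 1). Of the 76 core genes 70 fall in the lower right part, higher in transgenic and lower in labelled knockout, against 21 once libraries are rescaled to the same FPKM sum; Rps27, Rpl30, Rps27l and Rpl3l lie outside the axes.

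Transplanted and steady-state wild-type cells differ in transplantation and in title code together, and the effects of each cannot be told apart. This comparison shares a library with each of the others, so its values are given on their own. In transplanted wild type 70 of 76 core genes were higher than at steady state, where 45.9% of 10835 genes were, and the median difference was 0.12, against -0.02 for all genes. Among other genes at 100 FPKM or more, 44.9% were higher. Counting intervals lay above 1 for 52 core genes and below it for 2, and above 1 for 16.0% of all genes. Rescaled to the same FPKM sum, the core median was 0.02 and that of all genes -0.12. At 1.2-fold, 6 core genes were higher and 0 lower, against 15.4% and 12.8% of all genes, and at 2-fold the count was 0, against 2.3% either way.

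Rps2 led, at 824 FPKM in transplanted wild type against 599 at steady state (ratio 1.38, 1.32 to 1.44). Rplp1 followed at 2043 against 1594 FPKM (ratio 1.28, 1.23 to 1.34), then Rps21 at 1417 against 1128 (ratio 1.26, 1.17 to 1.34), Rpl10a at 730 against 587 (ratio 1.24, 1.18 to 1.31) and Rpl13 at 1113 against 916 (ratio 1.22, 1.17 to 1.27). Rps21 and Rpl13 belong to the small and the large subunit. Rpl28 was lower, at 2010 against 2147 FPKM (ratio 0.936, 0.909 to 0.965), as was Rps3a at 1802 against 1883 (ratio 0.957, 0.932 to 0.983). Rps14, at 1147 against 1193 FPKM, had an interval that included 1, as had Rps27 and Rpl30.

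**Figure D4:**
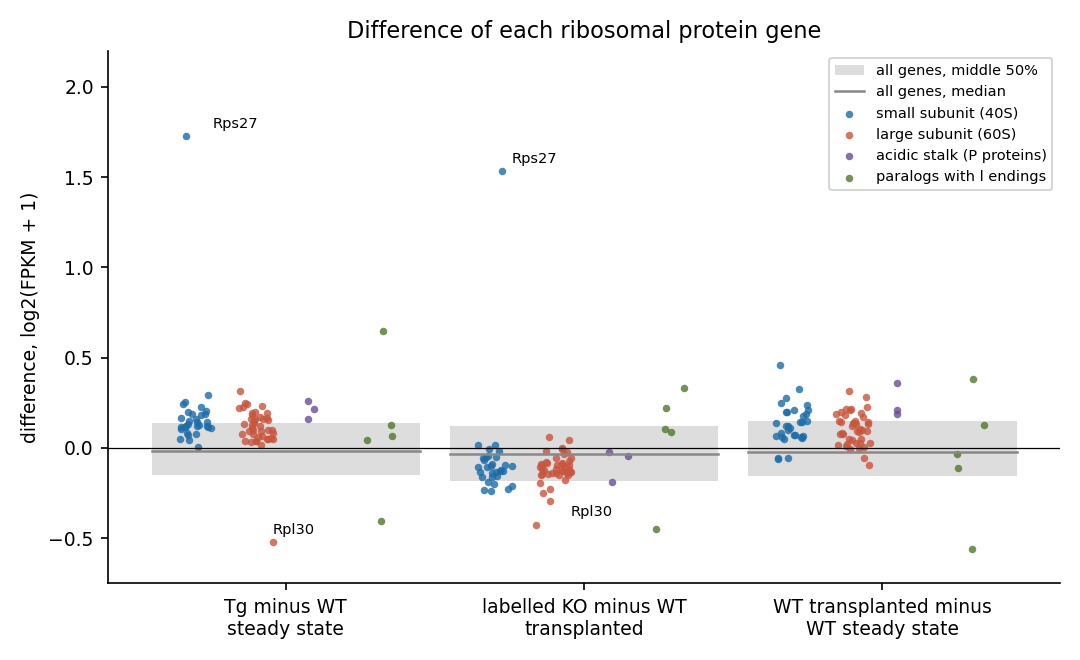
Difference in log2(FPKM + 1) of each ribosomal protein gene in the 3 comparisons, by class, over a grey box between the quartiles of all genes and a grey line at their median. Core genes cluster at medians of 0.13, -0.11 and 0.12 with Rps27 far above at 1.73 and 1.53 in both genotype comparisons; rescaled to the same FPKM sum these medians are 0.01, -0.01 and 0.02.

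Over all 4 libraries the SD of log2 level was under 0.15 in 73 of 76 core genes, against 54.2% of all genes and 58.2% of other genes at 100 FPKM or more, the exceptions being Rps27 at 0.95, Rpl30 at 0.28 and Rps2 at 0.19. The highest value was in the transgenic library for 48 genes and in transplanted wild type for 27, against 19.9% and 26.5% of all genes. The lowest was in steady-state wild type for 43, and for 30 it was in the library labelled knockout, against 22.5% and 30.6%. Rpl30 and Rps27, most of whose summed level lies at a copy, were left out of a further count, a choice made after values were seen. Then 74 of 74 core genes were higher in the transgenic library, against 46.7% of all genes. In the library labelled knockout 70 of 74 were lower, against 56.0%. In transplanted wild type 70 of 74 were higher than at steady state, against 45.9%. Rescaled to the same FPKM sum, the medians of all 76 core genes were 0.01, -0.01 and 0.02 in these comparisons.

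Among core genes the difference had a Spearman correlation with transcript length of -0.24 for transgenic against wild type and of -0.31 for labelled knockout against wild type (76 genes that share both libraries), and with GC content of 0.11 and 0.06. Core genes with the CCGGAAG motif had a median of 0.16 in the transgenic comparison (22 genes) and those without it 0.12 (33 genes). In the comparison of labelled knockout with wild type these medians were -0.12 and -0.12. With and without the E-box (6 and 49 genes) the medians were 0.14 and 0.13 in the transgenic comparison, -0.14 and -0.11 in that of labelled knockout with wild type, and 0.06 and 0.14 in that of transplanted with steady-state wild type. These are descriptions of few genes, with no test.

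Some core genes have roles outside the ribosome. Rpl5 and Rpl11, which with the smallest ribosomal RNA bind Mdm2 and so stabilise p53, are examples. In the transgenic comparison the interval of Rpl5 included 1, as given above, and Rpl11 was at 1426 FPKM against 1312 (ratio 1.09, 1.05 to 1.13). In the library labelled knockout they stood at 444 against 494 FPKM (ratio 0.899, 0.870 to 0.930) and at 1251 against 1350 FPKM (ratio 0.927, 0.896 to 0.959). Rps6, the substrate of S6 kinase, was at 811 FPKM in the transgenic library against 771 in steady-state wild type, and at 729 in the library labelled knockout against 803 in transplanted wild type. Its promoter, printed above, holds a run of 10 pyrimidines at the start.

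Rps27a, made as a fusion with ubiquitin, was at 903 against 852 and at 899 against 928 FPKM in the same pairs. Rpl10, which joins the large subunit late and is X-linked, was at 1411 against 1377 FPKM in the transgenic pair (ratio 1.02, 0.989 to 1.06) and at 1430 against 1576 in the pair labelled knockout and wild type (ratio 0.907, 0.878 to 0.938). Rps4x, an X-linked small-subunit gene, was at 1732 against 1592 and at 1548 against 1732 FPKM. All 3 had the direction of the class in both pairs, with the interval including 1 for Rpl10 in the transgenic pair and for Rps27a in the other.

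Rpl3, close to the peptidyl transferase centre, was at 722 against 617 FPKM in the transgenic pair (ratio 1.17, 1.13 to 1.22) and at 639 against 702 in the other (ratio 0.910, 0.879 to 0.943). Rpl13a, released from the ribosome in human monocytes to silence inflammatory transcripts, was at 1429 against 1336 and at 1278 against 1407 FPKM. Rpl38, which in mice is needed for translation of Hox mRNAs, was at 2122 against 1887 and at 1796 against 1911 FPKM. Rpl41, a very short protein, was at 2034 against 1770 and at 1926 against 1952 FPKM, and its interval in the second pair (0.952 to 1.02) included 1.

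Of genes mutated in Diamond-Blackfan anaemia in people, a red cell aplasia mostly caused by loss of a single copy of a ribosomal protein gene, 18 of 19 listed passed the threshold. All 18 were higher in the transgenic library than in steady-state wild type (median 0.12), against 46.7% of all genes. In the library labelled knockout 15 were lower than in transplanted wild type (median -0.09), against 56.0% of all genes. Both shares were close to those of all core genes. Rescaled to the same FPKM sum, 8 of the 18 were higher in the transgenic library, against 28.4% of all genes. On that scale 11 were higher and 7 lower in the library labelled knockout, where 60.9% of all genes were higher.

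The l-ending paralogs were described apart, since they are made in particular tissues or conditions and can replace their partners. Rpl22 and Rpl22l1 are the pair best known in lymphocytes, where loss of Rpl22 in mice arrests alpha-beta T cell development and raises Rpl22l1. Rpl22 was at 112 FPKM in the transgenic library against 101 in steady-state wild type, and at 108 in the library labelled knockout against 118 in transplanted wild type. Rpl22l1 was at 156.5 against 144 and at 149 against 140 FPKM in the same pairs. The paralog was the higher of both in every library, at 1.40 and 1.42 times its partner in the transgenic and steady-state wild-type libraries, 1.38 in the library labelled knockout and 1.19 in transplanted wild type. No ratio between libraries of either gene had an interval outside 1.

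Rps27l, a p53 target in human cells, was at 103 FPKM in the transgenic library against 65.6 in steady-state wild type (ratio 1.57, 1.27 to 1.96), and at 108 in the library labelled knockout against 85.6 in transplanted wild type (ratio 1.26, 1.04 to 1.52). It was thus higher in both genotype comparisons, where the core genes went in opposite directions. Against Rps27 and its copy together it was 1.90% in the transgenic library and 1.28% in steady-state wild type, then 2.35% in the library labelled knockout and 1.73% in transplanted wild type. Its 24 differences from Rps27 in the letters printed above set it apart from the copy.

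Rpl36al was at 341 against 327 FPKM in the transgenic pair and at 384 against 357 in the pair labelled knockout and wild type, beside Rpl36a at 624 against 525 and at 588 against 591. The paralog thus held 0.547 of its partner's level in the transgenic library and 0.622 in steady-state wild type. It held 0.652 in the library labelled knockout and 0.604 in transplanted wild type. Rpl7l1 was at 32.6 against 31.5 and at 34.1 against 29.1 FPKM, between 2.06% and 2.68% of Rpl7. Rpl3l, a paralog made mainly in heart and skeletal muscle, was at 3.46 against 4.92 and at 1.94 against 3.02 FPKM, under 1% of Rpl3 in every library. The intervals of these 3 included 1 in both genotype comparisons. Of the 5 paralogs, 4 were higher in the transgenic library and 4 in the library labelled knockout, against 46.7% and 44.0% of all genes. The medians of the paralogs were 0.06 and 0.11. Rescaled to the same FPKM sum, the transgenic median turned to -0.06 and that of the labelled knockout was 0.21.

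Ribosomal protein genes with other names include Fau and Gnb2l1, and both went with the core in both genotype pairs as deposited. Fau, a small-subunit protein fused to a ubiquitin-like protein, was at 1877 FPKM in the transgenic library against 1718 in steady-state wild type, and at 1584 in the library labelled knockout against 1788 in transplanted wild type. Gnb2l1 (Rack1), a scaffold on the small subunit, was at 918 against 859 and at 873 against 949 FPKM.

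Of 22 other TOP transcripts, 14 were higher in the transgenic library (median 0.05), against 46.7% of all genes. These transcripts include Gnb2l1, given above, and genes counted again in the factor lists below. The genes counted again are Eef1a1, Eef1b2, Eef1d, Eef1g, Eef2, Eif3e, Eif3f, Eif3h and Eif4b. In the library labelled knockout 16 were lower (median -0.08), against 56.0% of all genes. The list included Vim, at 201 against 167 FPKM in the transgenic pair, and Hnrnpa1, at 78.9 against 104. Gas5, a TOP transcript without a protein that hosts small nucleolar RNAs, was at 51.2 FPKM in the library labelled knockout against 65.2 in transplanted wild type. An elongation list of 11 genes had medians of 0.07 and -0.02, and the 27 initiation factors 0.02 and -0.03. Besides elongation and release factors, the elongation list holds the kinase Eef2k, Eef1e1 and Abce1. In the transgenic library 7 of its 11 genes were higher, against 46.7% of all genes. In the library labelled knockout 6 were lower, against 56.0% of all genes: Eef1a1, Eef1b2, Eef1d, Eef1g, Eef2 and Abce1. The other 5, among them Eef2k and Eef1e1, were higher there. Among initiation factors Eif4h and Eif4a2, which act in mRNA unwinding, were furthest in the pair labelled knockout and wild type, at 133 against 109 and at 228 against 276 FPKM. The medians of both factor lists were nearer 0 than those of the core as deposited. On the scale of equal FPKM sums the medians of all of these lists turned sign. The TOP transcripts turned to -0.07 and 0.02, the elongation list to -0.05 and 0.08, and the initiation factors to -0.10 and 0.08.

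The 13 genes of mTORC1 and TOP control had a median of -0.11 in the transgenic pair, with 10 lower, against 53.3% of all genes. Their median was -0.004 in the other pair. Eif4ebp1, the translation repressor that mTORC1 inactivates, was at 25.6 FPKM in the transgenic library against 37.9 in steady-state wild type, and Mtor was at 43.5 in the library labelled knockout against 32.4 in transplanted wild type. Among 10 proposed regulators of ribosomal protein gene transcription the medians were -0.10 and 0.00. Myc was at 12.9 against 10.8 FPKM in the transgenic pair and at 17.2 against 38.0 in the pair labelled knockout and wild type. It had the direction of the core genes in both. Of the 10 regulators, however, 6 were higher in the library labelled knockout and 7 lower in the transgenic library, against 44.0% and 53.3% of all genes. A mixed list of 13 surveillance and storage genes also holds assembly factors and the p53 pair Trp53 and Mdm2. Of these 13, 10 were lower in the transgenic library (median -0.02), against 53.3% of all genes. In the library labelled knockout 8 were lower (median -0.09), a share near the 56.0% of all genes. Nob1, the nuclease that finishes the small-subunit RNA, was at 19.1 against 24.0 FPKM in the transgenic pair, and Ltv1, which helps assemble that subunit, at 23.8 against 28.4 in the other. With equal FPKM sums the medians of the mTORC1, transcription and surveillance lists were -0.23, -0.22 and -0.14 in the transgenic pair and 0.09, 0.10 and 0.01 in the other.

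Mitochondrial ribosomal proteins, which serve a separate ribosome, did not share the pair of opposite directions as deposited. Of 75 measured, 49 were higher in the transgenic library than in steady-state wild type (median 0.08), against 46.7% of all genes. In the library labelled knockout 51 were higher than in transplanted wild type (median 0.08), against 44.0% of all genes. Rescaled to the same FPKM sum these medians were -0.03 and 0.18. Mrpl42 was at 54.7 against 35.2 FPKM in the transgenic pair and at 63.6 against 44.5 in the other. Mrps6 was at 11.2 FPKM in the library labelled knockout against 17.1 in transplanted wild type. The sign of the median in the second pair was thus positive for mitochondrial and negative for cytosolic ribosomal proteins, and the difference between the lists was not tested.

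How far the summed level differed depended on what it was set against. The 76 core genes summed to 90020 FPKM in the transgenic library against 81990 in steady-state wild type, and to 83106 in the library labelled knockout against 89296 in transplanted wild type. As a share of genes of at least 300 nt they held 18.4% against 17.0% and 17.2% against 18.1%. As a share of all FPKM, which includes the short or unmatched genes, they lay between 15.82% and 16.02%. The FPKM sum of these longer genes was 490563 in the transgenic library against 483584 in steady-state wild type, then 481901 in the library labelled knockout against 493270 in transplanted wild type.

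**Figure D5:**
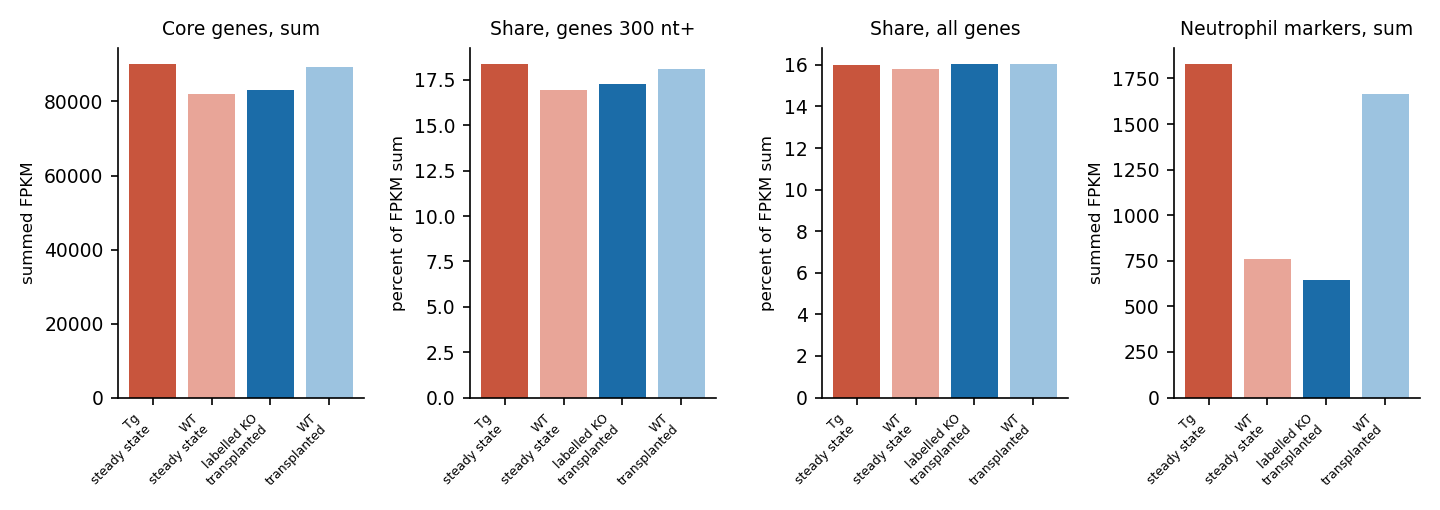
Bars give, for each library, the summed FPKM of the 76 core genes, their share of genes of at least 300 nt, their share of all genes and the summed FPKM of 10 neutrophil markers. Both sums and the share among these longer genes are higher in the transgenic library and in transplanted wild type, while the share of all genes lies between 15.82% and 16.02% throughout.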

How the data were processed

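Expression was measured by RNA-seq of pre-B cells in 4 libraries, 1 per group. RNA came from a miRNeasy kit and TruSeq stranded mRNA libraries were made from it, per the labels' protocols. The submitters' processing notes list Cufflinks 2.2.1, SAMtools 0.1.19, TopHat2 2.0.13 and Bowtie2 2.2.3, with mm10 as the genome; no source used here gives their roles or the annotation. The deposited values were read as FPKM, from their form and from Cufflinks in those notes, since the headers name no unit. The members and gene lists were chosen with earlier results of these data known, and the Diamond-Blackfan list and the addition of copies after values were seen.

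Differences compare log2(FPKM + 1) between libraries for genes that reach 1 FPKM in either, which understates the change of low genes. Plain ratios carry intervals from estimated reads. Depth was recovered from steps of 1 read in low genes with 1 transcript, and reads used the shortest transcript with the principal coding sequence, less 210 nt. This is too long for Rps20, whose interval is not given but which is counted among the core genes with intervals outside 1. Other core genes also have a transcript much longer than the coding part, such as Rpl12 (1242 against 495 nt) and Rpl5 (2045 against 891 nt). Where the transcript made is shorter, reads are overestimated and the interval is too narrow. Copies were found with BLAST 2.17.0 against GENCODE M21 (GRCm38). Of the symbols, 20911 matched directly and 1900 through a synonym. Genes named are the highest and lowest core genes by level and by difference, the paralogs, core genes with known roles, and list members with large differences; Rpl34, Gnb2l1, Rpl26 and their copies were named after their values were seen. Only the 2-fold call was tested on simulated reads, with known changes larger than that. The simulation did not cover differences as small as those of the core, nor the scaling, the intervals, the recovered depth or the copies. Python 3.11.15, pandas 2.3.3 and SciPy 1.17.1 were used. Results for some genes are not reported here.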

Additional observations from a re-analysis of the deposited data

Results flagged for a closer look

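The core median was 0.128 on the log2(FPKM + 1) scale for transgenic over wild type at steady state and -0.112 for labelled knockout over wild type after transplantation. Both contrasts thus had opposite directions. They are not the same contrast, since by the labels the first is a gain and the second a loss of STAP-2, in different conditions. The difference between both was not tested, since each group has 1 library. Neutrophil markers and the FPKM of short or unmatched genes had the same pair of directions, and their part was not tested.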

How the results depend on the processing

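No paired analysis was possible because each group has 1 library and no result comes from a test. The scale to which the libraries were brought moved the core most. With libraries rescaled to the same FPKM sum, core medians were 0.008 (transgenic over wild type), -0.008 (labelled knockout over wild type) and 0.018 (transplanted over steady-state wild type). On that scale core genes higher numbered 42, 34 and 41, against 28.4%, 60.9% and 31.1% of all genes. Core genes past 1.2-fold then numbered 2 for transgenic and 1 for transplanted wild type. Scaling by the median of gene ratios gave a median of -0.085 with 12 higher for labelled knockout, against 48.4% of all genes, and 8 past 1.2-fold for transgenic. The upper quartile gave 9 past 1.2-fold for transgenic and a median of 0.148 for transplanted wild type. For labelled knockout it gave 8 higher, against 46.3% of all genes. Without the 100 highest genes in the sum, 8 were higher for labelled knockout, against 46.4% of all genes. Subtracting the median of genes of like length gave 0.079 with 2 past 1.2-fold for transgenic, and 5 past 1.2-fold for labelled knockout. For none of these settings is a share of all genes past 1.2-fold given. As deposited these shares were 14.6% higher and 12.3% lower for transgenic, and 12.7% higher and 16.7% lower for labelled knockout. For transplanted wild type they were 15.4% and 12.8%. Adding copies left 0 past 2-fold in both genotype comparisons and 2 and 1 past 1.2-fold; Rpl30 then stood at 0.14 for transgenic and Rps27 at -0.108 for labelled knockout, both with the opposite sign. In each of these results the cause was not tested, except where copies were added, which by construction joins gene and copy.

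The share of the core in the FPKM sum was 21.69% in the transgenic library, 19.94% in steady-state wild type, 20.23% in the library labelled knockout and 21.32% in transplanted wild type without the 100 highest other genes. In the same order it was 18.35%, 16.95%, 17.25% and 18.1% among genes of 300 nt or more, 15.53%, 15.37%, 15.57% and 15.59% without the highest core gene, and 17.19%, 17.09%, 17.19% and 17.17% with copies. A pseudocount of 0.1, no filter, a filter at 5 FPKM and transcripts of 500 nt or more moved no core median beyond 0.126 to 0.129, -0.115 to -0.109 and 0.122 to 0.123 in the same comparisons, and turned no direction. Depth limits single genes at low level, such as Rpl3l, whose intervals span 1.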
